A study of Mus musculus with 2 samples.

Results

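Many mammalian genes have more than 1 promoter, and the accessible chromatin of a tissue shows which of the annotated starts were open in its cells. The sites described here are open starts that lay inside a gene whose most upstream annotated start was closed. They were chosen from peaks of DNase-seq, an assay in which the nuclease DNase I cuts accessible chromatin and the cut ends are sequenced. A gene qualified when no peak lay within 1 kb of its most upstream annotated start in either animal, and when in both animals a peak lay within 200 bp of another protein-coding transcript start more than 5 kb downstream. Of 20807 autosomal protein-coding genes of GENCODE release M21, 400 met this rule (1.92%), and 1 internal start per gene, the one with the highest mean peak, is described with the 200 bp on either side of it.

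The data came from the urinary bladder of 2 female mice of strain B6CASTF1/J, an F1 hybrid, both 36 days old. The animals are numbered 5 and 6 in the labels and are called replicates 1 and 2 here. They form a single group, with 1 library from each animal and no control or treated animal, so the spread between replicates is the difference between these 2 mice, and the signal does not separate the parental alleles. The deposited lists held 117773 peaks and 280105 footprints for replicate 1, and 102671 peaks and 247833 footprints for replicate 2. The number of sequenced reads was not given in the sources used here, so the depth behind each peak is unknown. The tissue is a mixture of cell types, so an opening in fewer cells and a weaker opening in each cell cannot be told apart. As a check of the tissue, a peak lay within 1 kb of a coding start in both animals for 23 of 24 urothelial markers, 15 of 16 smooth muscle markers, 13 of 14 fibroblast markers and 9 of 12 endothelial markers. The same held for 3 of 12 immune markers, 6 of 8 autosomal Schwann cell and nerve markers, 1 of 6 liver markers and 1 of 6 retina markers, against 66.9% of all autosomal protein-coding genes. The general leukocyte marker Ptprc and the myeloid markers Itgam, Csf1r and Cd68 were among those without a peak in both animals. None of the genes in these 8 marker lists was among the 400, but few could have been. A coding start more than 5 kb downstream of the first was present in 3 urothelial, 7 smooth muscle, 3 fibroblast and 5 endothelial genes. It was present in 2 immune, 2 Schwann cell and nerve, 0 liver and 2 retina genes. Over all genes with such a start, 8.03% were among the 400, so nothing is read from the absence.

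A promoter is the stretch of DNA around a transcription start where RNA polymerase II and its general factors assemble. Promoters of broadly used genes often lie in CpG islands, where the dinucleotide CG is not depleted, while promoters with a TATA box more often belong to genes of restricted expression. A gene with alternative promoters can make transcripts that differ in their first exon, and, where the coding start moves, proteins that differ at the amino terminus. Tropomyosins, nuclear receptors and cyclic nucleotide phosphodiesterases are familiar families with such gene structures.

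The sequences directly upstream of 5 of these open starts show the range of base composition among them, and 3 are set beside the closed most upstream start of the same gene. Each runs 5′ to 3′ on the strand of the gene from 200 bases before the start to the base before it. Capitals mark CG dinucleotides, except in Palld, where they mark a TATA box. The coordinates are those of the GRCm38 (mm10) genome, and the minus strand applies to all but Tpm3, which is on the plus strand. Hdac4 encodes a class IIa histone deacetylase, and its open start held 16 CG dinucleotides at chr1:92180342-92180541 while its closed start held 2 at chr1:92195700-92195899. That closed start had no protein-coding transcript. Atf3 encodes a stress-induced transcription factor of the leucine zipper class, with 16 at chr1:191183341-191183540 for the open start and 4 at chr1:191218040-191218239 for the closed one. Tpm3 encodes a tropomyosin, which lies along actin filaments, with 6 at chr3:90079340-90079539 and 1 at chr3:90072449-90072648. Palld encodes palladin, an actin-bundling protein, and its open start at chr8:61591143-61591342 is shown because it was 1 of 2 with a TATA box at the usual distance. Slc2a9 encodes a urate transporter, and its open start at chr5:38480307-38480506 is shown as a CpG-poor example, with 2.
Hdac4 open internal start: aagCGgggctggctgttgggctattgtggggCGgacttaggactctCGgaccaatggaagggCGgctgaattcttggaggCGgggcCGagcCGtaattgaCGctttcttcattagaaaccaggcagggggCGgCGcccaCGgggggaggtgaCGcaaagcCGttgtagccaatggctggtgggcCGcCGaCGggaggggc
Hdac4 closed upstream start: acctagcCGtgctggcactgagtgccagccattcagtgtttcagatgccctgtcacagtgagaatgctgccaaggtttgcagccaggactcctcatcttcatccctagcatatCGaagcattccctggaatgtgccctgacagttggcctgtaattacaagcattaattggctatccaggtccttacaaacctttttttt
Atf3 open internal start: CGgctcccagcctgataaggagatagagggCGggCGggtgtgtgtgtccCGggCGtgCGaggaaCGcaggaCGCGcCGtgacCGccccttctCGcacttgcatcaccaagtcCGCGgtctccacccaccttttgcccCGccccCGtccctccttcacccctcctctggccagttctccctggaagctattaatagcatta
Atf3 closed upstream start: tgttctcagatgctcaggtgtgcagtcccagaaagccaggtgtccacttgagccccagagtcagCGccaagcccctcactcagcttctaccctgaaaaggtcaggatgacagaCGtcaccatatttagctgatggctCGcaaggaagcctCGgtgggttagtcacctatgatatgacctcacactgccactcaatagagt
Tpm3 open internal start: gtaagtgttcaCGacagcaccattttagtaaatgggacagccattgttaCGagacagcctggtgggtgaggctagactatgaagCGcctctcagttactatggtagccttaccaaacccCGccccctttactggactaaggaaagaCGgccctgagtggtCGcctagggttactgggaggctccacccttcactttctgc
Tpm3 closed upstream start: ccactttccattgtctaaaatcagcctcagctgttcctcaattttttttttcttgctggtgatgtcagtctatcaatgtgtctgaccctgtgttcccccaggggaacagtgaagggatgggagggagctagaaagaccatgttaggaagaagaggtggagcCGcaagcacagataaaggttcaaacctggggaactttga
Palld open internal start: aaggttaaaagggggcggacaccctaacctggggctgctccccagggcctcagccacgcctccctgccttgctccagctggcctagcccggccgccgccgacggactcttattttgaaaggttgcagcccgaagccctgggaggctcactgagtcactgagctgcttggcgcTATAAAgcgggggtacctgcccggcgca
Slc2a9 open internal start: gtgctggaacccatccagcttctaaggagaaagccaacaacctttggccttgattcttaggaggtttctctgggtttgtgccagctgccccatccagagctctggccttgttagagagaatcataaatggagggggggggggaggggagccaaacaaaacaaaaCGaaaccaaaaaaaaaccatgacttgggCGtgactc

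Genes with a closed first start were common, and the open internal start was the less usual state among them. The most upstream start had no peak within 1 kb in either animal in 6822 genes, and 1331 of these had a protein-coding start more than 5 kb downstream. The 400 genes were 30.1% of those 1331. Across the genome, 10181 starts lay more than 5 kb downstream of the first start of their gene, and 2672 of them, 26.2%, had a peak in both animals. The rule used this same status, so no more is read from these shares. A further 66 genes had an open internal start but an upstream peak in 1 animal and not in the other, and they were left out. Near the limits of the rule, Rbbp6, Eif4g1 and Dcun1d1 entered with 5014, 5085 and 5111 bp between the starts, while Pef1, Casc3 and Eml2 stayed outside at 4998, 4903 and 4749 bp. Rapgef5, Jade1 and Slc2a9 entered with the nearest peak 1002, 1011 and 1050 bp from the upstream start, while St6galnac6, Fgfr1 and Tcf4 had one at 952, 907 and 905 bp. At the internal start, peaks lay as far as 199 bp away in Zbtb12 and 196 bp in T2, against 220, 222 and 236 bp in Mpo, Prrx2 and Clip4, which stayed outside.

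The starts of the 400 genes were a median of 17427 bp apart, with quartiles at 9312 and 38069 bp and a range from 5014 to 1453158 bp. The internal start lay in an intron of the upstream transcript in 332 genes, in an exon in 35, and beyond the end of that transcript in 33. Between the starts, 120 genes (30%) had no peak in either animal. The longest distance was in Pde4d, which encodes a cyclic AMP phosphodiesterase: its open start on chromosome 13 lay 1453158 bp from the first start, with 59 and 53 peaks between them in replicates 1 and 2. Asic2, for an acid-sensing ion channel, followed with 815136 bp, then the zinc finger homeobox factor gene Zfhx3 with 772000 bp, the gene of the reelin adaptor Dab1 with 747754 bp and the cadherin gene Cdh18 with 487441 bp. At these 5 starts the heights in replicates 1 and 2 were 2.54 and 1.78 (Pde4d), 0.592 and 0.832 (Asic2), 2.01 and 2.06 (Zfhx3), 1.96 and 1.22 (Dab1), and 0.797 and 0.569 (Cdh18). All 5 mean heights were below the median over the 400 starts, 2.46. Over all 400 the Spearman correlation of distance and mean height was -0.11, a description across sites that share the same libraries.

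In many of these genes more than 1 annotated start position was open, in some only a few bases apart, as the 2 in Usp37 over 3 bp. Positions so close share a peak, so the counts below are not counts of separate promoters. A single start position was open in 181 genes, and the open positions spanned more than 1 kb in 53. All of the candidate positions were open in 186, which include genes with a single candidate, such as Desi1 and Atf3. Mef2c, for a transcription factor of muscle and neural development, had the most, with 15 open of 20 candidate positions over 129415 bp. Rnf14, for an androgen receptor-associated ubiquitin ligase, had 12 of 12 open over 517 bp, and Mia2, for a protein of export from the endoplasmic reticulum, had 9 of 11 over 1782 bp. These 3 were singled out after their values were seen. An annotated start of another gene lay within 1 kb of 64 of the 400 internal starts (16%), a protein-coding one at 24, and for these the peak cannot be assigned to 1 gene.

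Peak height is the value the authors gave each peak, on a scale that is not stated, and the height of a start is that of its highest peak within 200 bp. The rule required a peak, so the heights are descriptions. At the 400 internal starts the height ran from 0.253 to 20.6 in replicate 1, with a median of 2.68 and quartiles at 1.04 and 6.73. In replicate 2 it ran from 0.246 to 12.6, with a median of 2.11 and quartiles at 0.858 and 4.33. The medians at 11819 most upstream starts with a peak within 200 bp in both animals were 5.18 and 3.72. The medians at 846 internal starts, chosen in the same way in genes whose most upstream start was open too, were 2.27 and 1.70. Set against the quartiles of mean height at the open most upstream starts, 182 of the 400 fell below the first quartile (mean height 2.02), and 87, 70 and 61 in the 3 ranges above it, in rising order.

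Each animal gave nearly the same order of the internal starts. The heights in replicates 1 and 2 had a Spearman correlation of 0.967 over the 400 starts, a description over sites of the same libraries, and the highest peaks of the animals overlapped at 390 of them. Heights were lower in replicate 2 at 342 starts. Over 84217 pairs of overlapping peaks genome-wide the median log2 difference, replicate 2 minus replicate 1, was -0.35, so differences are given relative to that median. On that scale the median over the 400 starts was -0.13 (SD 0.43 between starts), against -0.18 at the open most upstream starts. Relative to the open most upstream starts the sign turned, to 0.05.

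**Figure D1:**
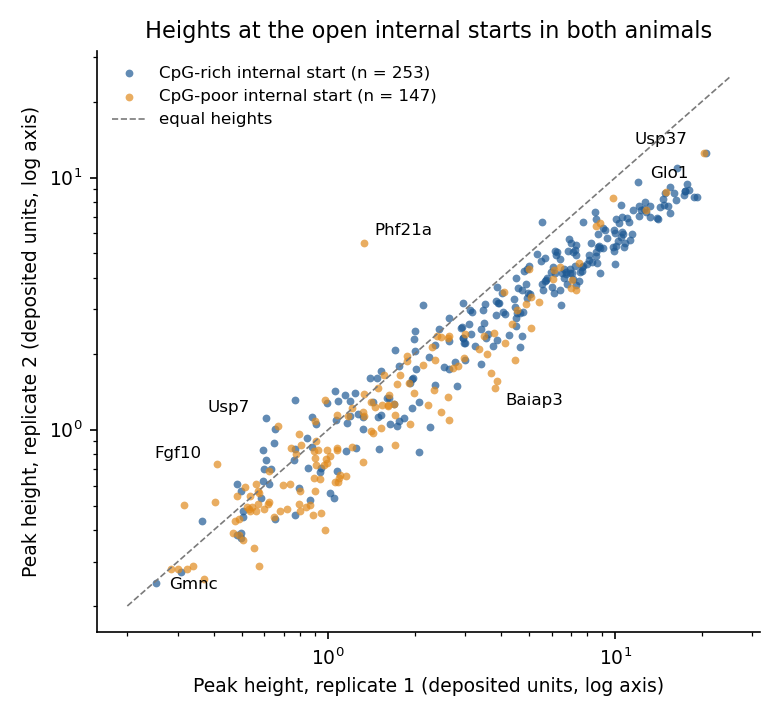
Peak height at each of the 400 open internal starts in replicate 1 (horizontal, log axis) and replicate 2 (vertical, log axis), coloured by CpG content, with a dashed line of equal heights. Most points, 342 of 400, lie below the line, and the 253 CpG-rich starts have the higher medians, 4.58 and 3.24 against 1.21 and 1.02 for the 147 CpG-poor ones.

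A difference of more than 1 on the relative log2 scale was found at 6 of the 400 starts. Replicate 2 was higher at 5 of them (1.25%, against 1.96% of all paired peaks), and replicate 1 at 1 (0.25%, against 0.894%), so neither share exceeded that of all peaks. The largest difference was at Phf21a, which encodes a reader of unmethylated histone H3 in a corepressor complex, with 1.33 in replicate 1 and 5.50 in replicate 2 (2.40 on the relative log2 scale). There the highest peaks of the animals did not overlap, so the values describe neighbouring sites. Usp7, for a ubiquitin protease that acts on the p53 pathway, had 0.608 and 1.11 (1.23), and Fgf10, for a growth factor secreted by mesenchyme, had 0.411 and 0.730 (1.19). Tet1, for a methylcytosine dioxygenase, and Amy1, for salivary amylase, also passed, at 1.14 and 1.02, and are named because they passed. Amylase genes have near-identical copies, so the value at Amy1 is uncertain. In the other direction Baiap3, for a protein of vesicle fusion, had 3.80 and 1.46 (-1.02). The next largest drops were at 1700019D03Rik, with 2.07 and 0.815, and Stox2, for a storkhead-box protein, with 3.88 and 1.56. With 1 library per animal, none of these differences can be set against a spread within an animal.

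CpG content separated the open internal start from the closed upstream start of the same gene. A start was called CpG-rich when GC was at least 50% and the observed CpG frequency at least 0.6 of that expected from base composition, over the 200 bp on either side. By this measure 253 of the 400 internal starts were CpG-rich, 63.25% (58.3 to 68.0; here and below, an exact Clopper-Pearson 95% interval, which covers counting error only). Of their own closed upstream starts, 20 were CpG-rich, 5% (3.08 to 7.62). The median observed to expected ratio was 0.727 at the internal and 0.243 at the upstream starts, and the median GC content 62.8% and 49.6%. In 240 genes the internal start alone was CpG-rich, in 7 the upstream start alone, in 13 both and in 140 neither. These values come from the GRCm38 reference sequence, which need not match both parental alleles of the hybrid, and were not used by the rule.

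**Figure D2:**
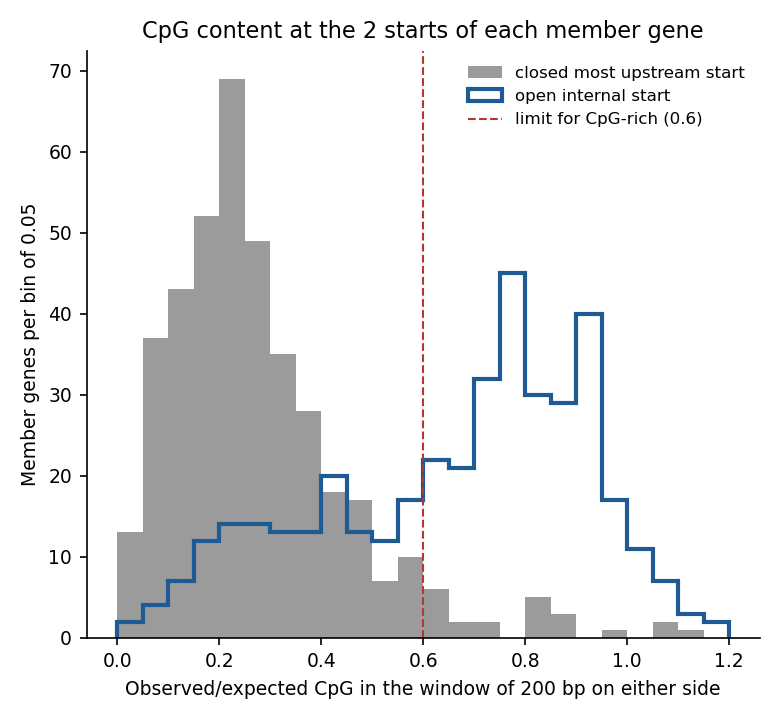
Observed to expected CpG ratio in the window around each start (horizontal) and the number of the 400 genes in each bin (vertical), for the closed most upstream start (filled) and the open internal start (outline), with the limit of 0.6 dashed. The closed starts gather around a median of 0.243, and the open internal starts spread around a median of 0.727.

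The share of CpG-rich starts lay between those of other open starts. It was 77.9% (77.2 to 78.7) at the open most upstream starts and 42.9% (39.5 to 46.3) at the 846 open internal starts of genes whose first start was open too, and the intervals of all 3 groups were apart. The closed upstream starts of the 400 genes, at 5%, were close to the 5.29% (4.76 to 5.87) of the 6422 closed upstream starts of genes without such an internal start. Over all 20807 most upstream starts the share was 48.8%. Height and CpG content went together among the 400. The CpG-rich starts had median heights of 4.58 and 3.24 in replicates 1 and 2, and the CpG-poor ones 1.21 and 1.02. From the lowest to the highest of the 4 height ranges set by the quartiles of open most upstream starts, the CpG-rich share was 41.8%, 69.0%, 88.6% and 90.2%, and it was 50.4%, 76.2%, 89.9% and 95.1% for open most upstream starts in the same ranges. The Spearman correlation of the CpG ratio with mean height was 0.45 over the 400 starts, again a description across sites.

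Some genes departed from this pattern. Among the genes in which both starts were CpG-rich were Tjp1, which encodes the tight junction scaffold ZO-1, with ratios of 1.06 at the open and 1.11 at the closed start. Arhgef7, for a guanine nucleotide exchange factor of Rac and Cdc42, had 0.918 and 1.07, and Dgkz, for a diacylglycerol kinase, had 0.904 and 0.860. Those 13 also held Pax6 and Otx2, both homeobox genes of eye and brain development; the internal start of Pax6 had heights of 0.845 and 0.926. Lhx2, a LIM homeobox gene, was 1 of the 7 genes with a CpG-rich closed start and a CpG-poor open one, with ratios of 0.883 and 0.494. At the other end, the highest CpG-poor internal start was at Glo1, which encodes glyoxalase 1 for the removal of methylglyoxal, with a mean height of 16.4. It was followed by Aktip, for an AKT-interacting protein (11.9), Cyb5a, for cytochrome b5 (10.1), Zmynd8, for a reader of acetylated histones (9.06), and Blmh, for bleomycin hydrolase (7.73). The CpG ratios at these 5 starts were 0.507, 0.410, 0.468, 0.432 and 0.582, in that order. All were below the limit of 0.6 but above the median of 0.243 at the closed upstream starts. Apart from Tjp1, Arhgef7 and Glo1, the genes of this paragraph were chosen after their values were seen.

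Closed upstream starts of the 400 genes more often lay mostly in repeats than other closed starts did, though the median repeat content was similar. Repeat sequence, as masked in the reference, took more than 50% of the 200 bp on either side at 55 of them, 13.75% (10.5 to 17.5), against 5.62% (5.07 to 6.21) of the 6422 other closed upstream starts. The share was 0.5% at the open internal starts and 0.161% at the open most upstream starts. The median masked part of the window was 10.5% at the closed upstream starts of the 400 genes and 9.98% at the other closed ones. Of the 6822 genes with a closed first start, 1331 had a candidate internal start, so most of the 6422 had none. The groups thus differ in gene structure, and the part of this in the repeat share was not tested. Naalad2, for a glutamate carboxypeptidase family member, had 90.3% of its upstream window masked, Qtrt2, for a subunit of the tRNA-guanine transglycosylase, had 75.3%, Phf21a 74.8% and Zfhx3 63.6%. Reads from repeats can be harder to place on the genome, and the part of this in the closed status was not tested. Bases whose cut rate had a false discovery rate up to 0.05 lay within 1 kb of the upstream start in 16 of the 400 genes, 4% (2.30 to 6.41), against 3.01% (2.60 to 3.45) of the other closed upstream starts and 100% of the open ones. These classes were set by peaks in the same libraries, so the shares are a description. Usp49 had 774 such bases and the other 15 between 1 and 69, Pde4d (16), Itga6 (3) and Arhgef7 (1) among them.

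In the gene models, the open internal start more often carried well supported transcripts than the closed start. Transcripts from it had the best transcript support level, 1, in 67.75% (62.9 to 72.3) of the 400 genes, against 36.25% (31.5 to 41.2) for transcripts from the closed start. A consensus coding sequence (CCDS) was attached to 72.75% and 34.75%, and the principal protein isoform by APPRIS, a database that ranks a gene's isoforms, to 60.75% and 28%. The rule asked for a coding transcript at the internal start and not at the upstream one, which had a coding transcript in 295 genes, 73.75%, so the CCDS and APPRIS gaps were in part fixed by the rule. In those 295 genes, a subset added after the values were seen, support level 1 was at 64.4% (58.7 to 69.9) of internal and 40% (34.4 to 45.8) of upstream starts, CCDS at 71.2% (65.7 to 76.3) and 47.1% (41.3 to 53.0), and the principal isoform at 59.0% (53.1 to 64.7) and 38.0% (32.4 to 43.8). In the 846 genes with both starts open the values were closer together, with support level 1 at 60.3% of internal and 53.4% of upstream starts, CCDS at 59.8% and 51.7%, and the principal isoform at 43.3% and 40.7%. Where the upstream start of these had a coding transcript, in 679 genes, CCDS was at 58.3% of internal and 64.4% of upstream starts, and the principal isoform at 40.4% and 50.7%.

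RefSeq, a separate annotation, gave the same order. A RefSeq gene start lay within 200 bp of the internal start in 249 of the 400 genes, 62.25% (57.3 to 67.0), and within 200 bp of the upstream start in 134, 33.5% (28.9 to 38.4). It marked the internal start alone in 166 genes, the upstream alone in 51, both in 83 and neither in 100. The match used position and strand and not the symbol, so a RefSeq start of another gene could mark a start. The symbols of 328 of the 400 genes were found in the RefSeq table. Any other gene counted as without a RefSeq start unless a start in the table matched by position, as happened for some. Nr3c1 and Vdac2, for example, were absent and had no match at either start. The shares, and the 100 genes with neither start marked, thus in part reflect entries missing from the table. In the 295 genes with a coding transcript at the upstream start the shares were 59.0% and 41.0% (35.4 to 46.9). In the 846 genes with both starts open they were 49.5% and 51.1%. In 276 of the 400 genes the coding starts of the transcripts could be compared: the start codon was the same in 139, 50.4% (44.3 to 56.4), and different in 137. For the 846 genes it was the same in 232 of 627, 37.0% (33.2 to 40.9). Atf3, Nr3c1, Cd47 and Lifr were among those with a shared start codon, and Tpm3, Palld, Arhgef7 and Robo1 among those with a different one.

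**Figure D3:**
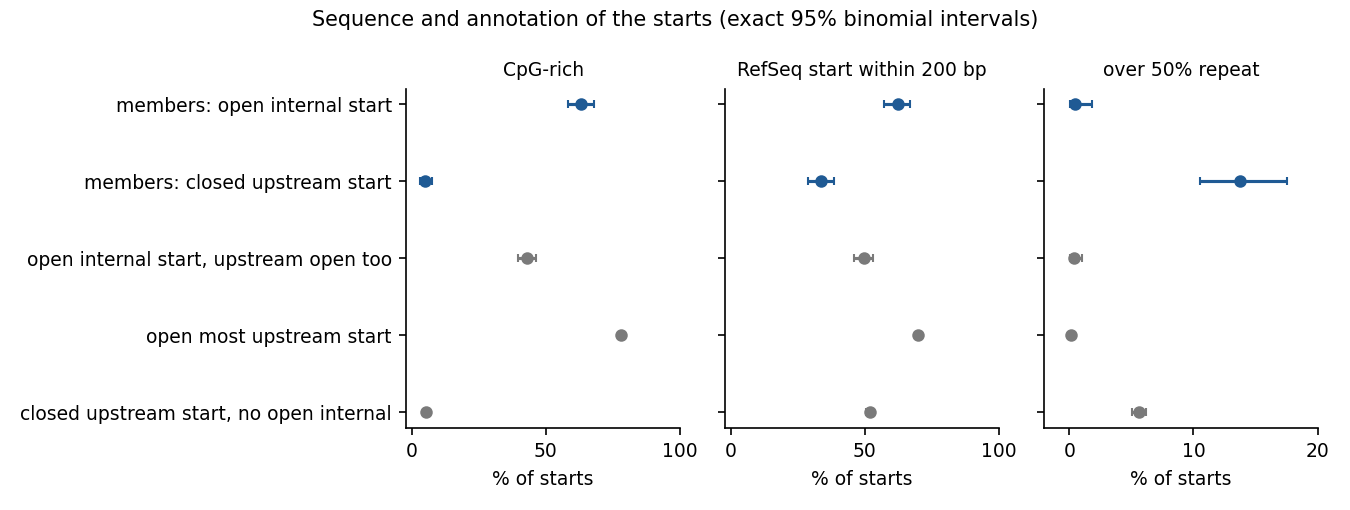
Share of starts (horizontal, percent, with exact 95% binomial intervals) that were CpG-rich, had a RefSeq start within 200 bp, or lay mostly in repeats, for the open internal and closed upstream starts of the 400 genes and for the comparison groups. The internal starts sit at 63.25%, 62.25% and 0.5%, and their own closed upstream starts at 5%, 33.5% and 13.75%.

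Footprints are short stretches within open chromatin that are cut less than their surroundings, as where a bound protein shields the DNA. The authors deposited them apart from the peak lists, from the same libraries, and how the caller used the peaks, if it did, is not stated. A footprint lay within 200 bp of the internal start in both animals at 338 of the 400 genes, 84.5% (80.6 to 87.9), against 92.8% of the open most upstream starts and 87.1% (84.7 to 89.3) of the 846 other internal starts. The count per start had a median of 4 in each animal, against 5 at the open most upstream starts. The share followed the height. It was 65.9% in the lowest of the height ranges and 100% in each of the other 3, while open most upstream starts had 74.6%, 97.5%, 99.5% and 99.9%. It was 91.3% at CpG-rich and 72.8% at CpG-poor internal starts. The closed upstream starts had no footprint in either animal (0 of 400, interval up to 0.918%), but the rule had chosen them for having no peak. Atf3 carried 11 and 7 footprints in replicates 1 and 2, Hdac4 8 and 7, Stag1 9 and 10, and Gpx4 9 and 7.

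The rule admitted peaks up to 200 bp on either side of the start, which bounds where they could lie, so their positions are a description. The midpoint of the highest peak lay a median of 15.5 bp before the internal start in replicate 1 (offset -15.5) and 7.5 bp before it in replicate 2 (offset -7.5), with quartiles from -71.5 to 73.5 and from -75 to 98.75. It lay before the start in 57.5% and 52.75% of the genes. At the open most upstream starts the offsets were -26.5 and -17.5. The highest peak covered the start base itself in 69.75% and 71% of the 400 genes, against 77.5% and 79.9% of the open most upstream starts. Footprints were most frequent from 60 to 40 bp before the internal start, where 43.25% and 38.75% of the starts had one in replicates 1 and 2.

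**Figure D4:**
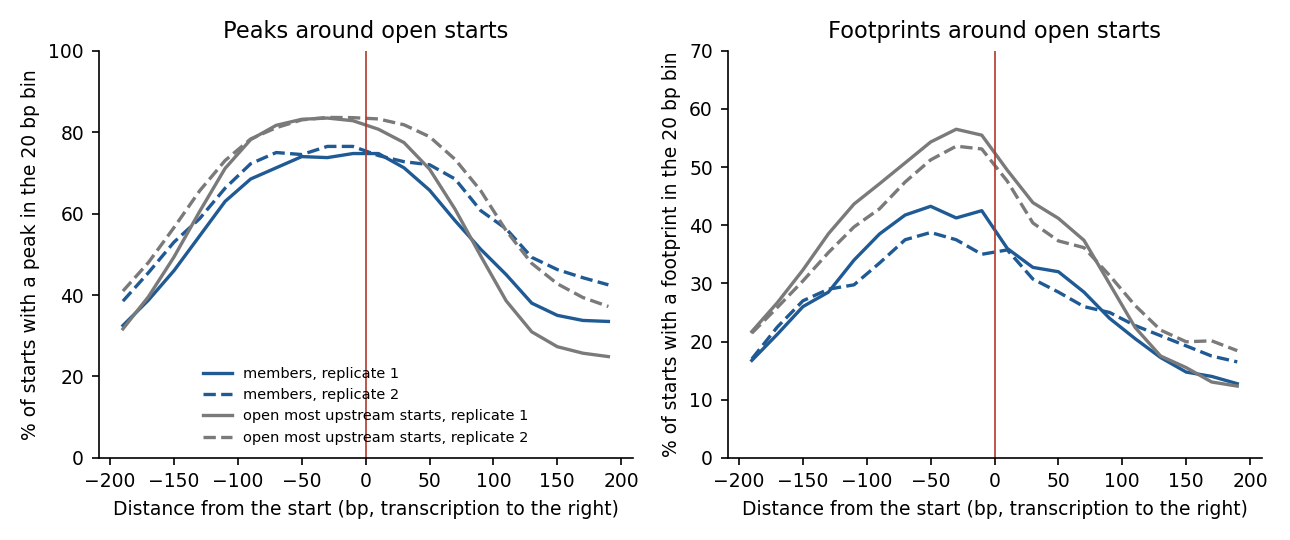
Share of starts (vertical, percent) with a peak or a footprint in each bin of 20 bp by distance from the start (horizontal, bp, transcription to the right), for the 400 internal starts and the open most upstream starts in each replicate. In the first bin after the start, 74.75% and 74.25% of the internal starts have a peak, and footprints at the internal starts reach 43.25% and 38.75% in the bin from 60 to 40 bp before the start.

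Short sequence motifs were searched on both strands in the 200 bp on either side of each start, for 14 factors, as exact letters. Each match is a description of the reference sequence and not a site of binding. The GC box, GGGCGG, bound by Sp and Klf factors, was in 64.75% (59.8 to 69.4) of the open internal starts, 14.5% of their closed upstream starts and 50.4% of all most upstream starts. The NRF1 motif, GCGCNNGC, was in 48.5%, 11% and 36.8%. The ETS motif, CCGGAAG, was in 11.5% (8.54 to 15.0) of the internal starts, 2.75% of their upstream starts and 13.3% of all most upstream starts, against 20.7% of the open ones. The cyclic AMP response element, TGACGTCA, was in 3% of the internal starts, 0.25% of their upstream starts and 2.51% of all, and the E-box, CACGTG, in 11.25%, 5.25% and 8.99%. At the 846 other internal starts, the GC box was in 53.7% and the NRF1 motif in 37.1%. There the ETS motif was in 9.69% (7.78 to 11.9), the cyclic AMP response element in 2.01% and the E-box in 8.75%. At the open most upstream starts the GC box was in 74.0%, the NRF1 motif in 55.9%, the cyclic AMP response element in 3.82% and the E-box in 11.7%. Among CpG-rich starts alone, the GC box was in 81.8% of the internal and 82.1% of the open most upstream starts. The NRF1 motif was there in 66.8% and 66.04%. The ETS motif stayed lower, at 15.02% (10.85 to 20.03) against 23.95% (23.09 to 24.84). The E-box (10.3% and 12.7%) and cyclic AMP response element (3.16% and 4.25%) had overlapping intervals. Among CpG-poor starts the GC box was in 35.4% (27.7 to 43.7) and 45.4% (43.5 to 47.4). All 5 motifs hold the dinucleotide CG. Motifs were searched independently of each other, so matches of different motifs may overlap.

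The other 9 motifs have no fixed CG, and the share of each was lower at the internal than at the closed starts of the same genes, by less than 1 percentage point for YY1, forkhead and grainyhead. TATAAA was in 5.75% of the open internal starts, 17.75% of their closed upstream starts and 13.6% of all most upstream starts. The RUNX motif, TGTGGT, was in 16%, 24% and 19.4%, and CCAAT in 35.25%, 47% and 42.5%. The AP-1 motif, TGANTCA, was in 9.25% (6.60 to 12.5) of the internal starts and 12% of their upstream starts, against 7.68% of all and 5.14% of the open most upstream starts. At the 846 other internal starts it was in 10.2% (8.21 to 12.4), so its share was not particular to the 400. Among CpG-poor starts alone it was in 15.0% (9.62 to 21.8) of the internal starts and 10.1% (8.98 to 11.3) of the open most upstream starts, with overlapping intervals. The TEAD motif, GGAATG, was in 14% of the internal starts, 21.25% of their upstream starts and 16.3% of all, and the GATA motif, AGATAAG, in 1.75%, 5.5% and 3.02%. The YY1 motif, AANATGGC, was in 5.25% (3.28 to 7.91), 5.5% and 8.23%, and in 10.8% (10.3 to 11.4) of the open most upstream starts. It was in 5.91% (4.42 to 7.72) of the 846 other internal starts. Among CpG-rich starts alone it was in 7.11% (4.27 to 11.0) of the internal and 12.4% (11.8 to 13.1) of the open most upstream starts. The forkhead motif, TGTTTAC, was in 2.25%, 2.5% and 3.30%, and the grainyhead motif, AACNNGTT, in 4.25%, 5% and 4.94%. At the open most upstream starts TATAAA was in 6.29%, RUNX in 14.4%, CCAAT in 40.6% and TEAD in 13.2%. There the GATA motif was in 1.48%, forkhead in 2.40% and grainyhead in 3.71%. TATAAA at its usual position, from 40 to 20 bp before the start, was found at 2 of the 400 internal starts, 0.5% (0.0606 to 1.79), in Palld and in Ptp4a3, which encodes a tyrosine phosphatase. It was at 1.5% of the closed upstream starts of the same genes, 0.922% of the open most upstream starts and 5.15% of the closed upstream starts of other genes. In the Palld sequence above, the capitals mark it.

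The 12 highest open internal starts lay in genes of varied cell functions. Usp37, for a ubiquitin-specific protease, had 20.6 and 12.6 in replicates 1 and 2, 38478 bp from its closed first start, but the start lay within 1 kb of a start of Cnot9, a subunit of the CCR4-NOT deadenylase, so the peak cannot be assigned to 1 of them. Glo1 had 20.4 and 12.5, at a start in an exon of the upstream transcript. Tbc1d14, for a regulator of autophagy, had 19.3 and 8.35. Desi1, for a deSUMOylating isopeptidase, had 16.4 and 10.9 near a start of the DNA repair gene Xrcc6. Hdac4 had 18.8 and 8.36, 15358 bp from its first start, and Tollip, for an adaptor of Toll-like receptor signalling, had 17.7 and 9.43.

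Oser1, named for its response to oxidative stress, had 18.02 and 8.89, at 5169 bp from the first start and near a start of the gene 2900093K20Rik. Gpx4, for the glutathione peroxidase that reduces lipid hydroperoxides, had 17.5 and 8.86 at 6322 bp. Its closed first start had no protein-coding transcript, and neither did those of Desi1, Hdac4 and Qtrt2 among these 12. Dcun1d4, for a cullin neddylation factor, had 17.5 and 8.83, and Kat6b, for a lysine acetyltransferase of histones, 17.3 and 8.49. Stag1, for a subunit of cohesin, had 15.6 and 9.17, and Qtrt2 had 16.0 and 8.71 near a start of Ccdc191. Of these 12 starts, all but that of Glo1 were CpG-rich, and all 12 were higher in replicate 1, as most of the 400 were. The lowest were at Homer1, for a scaffold of excitatory synapses (0.324 and 0.280), Tmem63c (0.300 and 0.280), Tmem200c (0.308 and 0.272), Naalad2 (0.284 and 0.280) and Gmnc, for a geminin-like factor of multiciliated cells (0.253 and 0.246).

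Genes of 5 functional groups were looked up among the 400, from lists of genes that in part were chosen because they are known to have long or multiple-start models. Such genes can meet the rule more easily, so each count is given with the number that had a candidate start, and over all genes with a candidate start 8.03% were among the 400. Of 192 autosomal genes of transcription and chromatin factors, 117 had a candidate start and 19 (16.2% of those) were among the 400. Of the 19, 17 had a CpG-rich internal start, against 63.25% of all 400, and their median mean height was 2.03, against 2.46 over all 400. Hdac4 had the highest of these starts. Atf3 had 16.3 and 8.13, 34699 bp from its first start, with 8 and 7 peaks between the starts. Kdm4c, for a demethylase of histone H3 lysine 9, had 8.78 and 5.36, and Homez, for a homeobox and leucine zipper factor, 7.07 and 4.20. Nr3c1, for the glucocorticoid receptor, had 4.43 and 3.30 at 29533 bp, and all 8 of its candidate start positions were open. Rara and Rarb, for retinoic acid receptors alpha and beta, had 4.76 and 2.94, and 3.54 and 2.30. Nfib, Runx2 and Pax6 were also among the 19.

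Of 105 autosomal cytoskeletal and contractile genes, 76 had a candidate start and 9 (11.8%) were among the 400, with a median mean height of 3.81 and a CpG-rich start in 6. Tpm3 had 7.94 and 4.56 at a start 6891 bp from the first, with all 5 candidate positions open and a different start codon. Arhgef7 had 6.19 and 5.12, Palld 6.64 and 4.33 at 311548 bp, and Nav2, for a neuron navigator protein at microtubule ends, 5.80 and 3.99 at 337473 bp. Macf1, for a linker of actin and microtubules, had 4.10 and 3.52. Of 94 adhesion and matrix genes, 53 had a candidate start and 5 (9.43%) were among the 400, 4 of them CpG-rich. Cd47, for the surface protein that restrains phagocytosis, had 8.07 and 4.72, and Tjp1 had 6.21 and 4.95 at 156542 bp. Itga6, for the integrin subunit of hemidesmosomes, had 2.64 and 1.74, and Robo1, for a receptor of Slit ligands, 2.24 and 1.94 at 354843 bp. The fifth was Ltbp4, for a binding protein of latent TGF-beta.

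Of 219 signalling genes, 115 had a candidate start and 13 (11.3%) were among the 400, with a median mean height of 1.23 and a CpG-rich start in 9. Akap7 and Akap2, for anchoring proteins of protein kinase A, had 6.07 and 4.41, and 2.98 and 1.93. Lifr, for the receptor of leukemia inhibitory factor, had 3.85 and 3.24, and Adra1b, for the alpha-1B adrenergic receptor, 3.09 and 2.62. Of 93 channels and transporters, 50 had a candidate start and 7 (14%) were among the 400, with a median of 0.961 and a CpG-rich start in 3. Slc37a1, for a glucose-6-phosphate transporter, had 5.43 and 3.20, and Slc2a9 2.13 and 1.80. Ano1, for a calcium-activated chloride channel, had 1.69 and 1.27. Slc14a1, for the urea transporter UT-B, which bladder urothelium expresses, had 1.07 and 0.849. Kcnma1 and Cacna1c, for the large-conductance potassium channel and the L-type calcium channel of smooth muscle, had 0.497 and 0.569, and 0.939 and 0.679. Rara, Rarb, Nfib, Runx2, Macf1, Kcnma1 and Cacna1c, and the mention of Pax6 and Ltbp4 in these lists, were chosen after their values were seen. Genes were listed after earlier results of these data were known, so these shares describe the lists only, and enrichment was not tested.

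**Figure D5:**
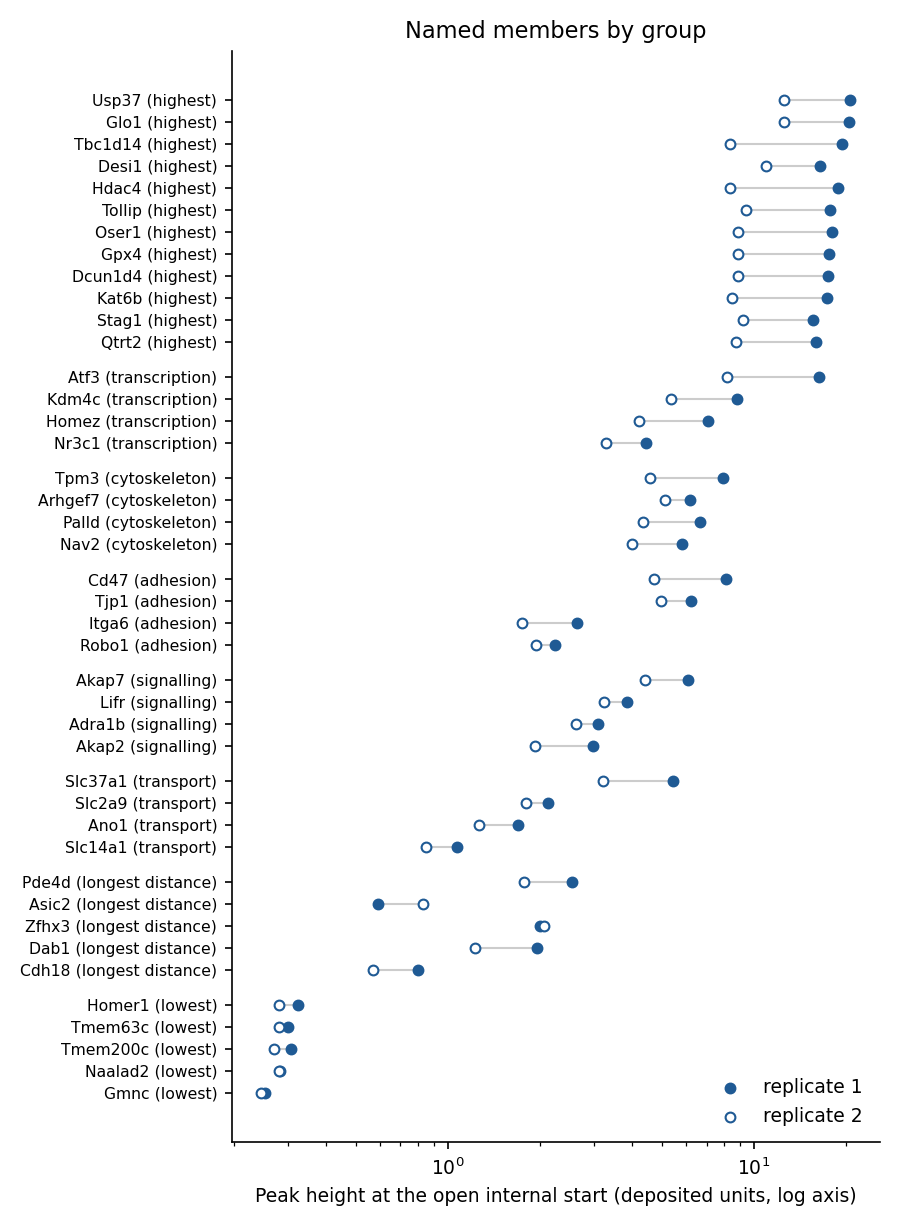
Peak height at the open internal start (horizontal, log axis, deposited units) of the named genes in replicate 1 (filled) and replicate 2 (open), by group. The 12 highest lie between 8.35 and 20.6 over both replicates, and the 5 lowest between 0.246 and 0.324.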

How the data were processed

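DNase-seq of bladder was analysed from the files deposited for 2 animals. Per the labels the assembly is mm10; the aligner, the peak and footprint callers and the threshold of the peak lists are not stated there. The authors deposited, for each animal, a larger and a smaller peak list, called separately, with a height per peak that is a signal value of unstated scaling; footprints, with a constant p-value threshold of 0.01; and single bases with a false discovery rate for their cut rate, also of the p-value kind, deposited up to 0.05. No peak ran past a chromosome end of the reference. Depth is unknown, so binomial intervals count sites, not reads.

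The larger lists were joined to GENCODE M21 starts with pysam 0.24.0 and pandas 2.3.3 in Python 3.11.15, with intervals from scipy 1.17.1. Sequences, GC, CpG and repeats (lower case) were read from the GRCm38 genome. RefSeq starts came from a RefSeq table of the same build, which held the symbols of 328 of the 400 genes. Named genes were the 12 highest and 5 lowest by mean height, the 5 longest, the 3 largest differences in each direction, members of marker lists, and the next 4 highest of each functional list; others are marked in the text as chosen after their values were seen, apart from genes that give the limits of the rule or examples of a start codon or repeat. The members and lists were chosen with earlier results of these data known. No p-value was computed, since there is 1 group and 1 library per animal. Alternatives covered the peak list, windows, distance, start definitions, animals, the CpG limit and the reference of the difference. The rule was tested on simulated data, where 372 of 372 planted genes among 2000 were recovered and 0 others were called.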

Additional observations from a re-analysis of the deposited data

How the results depend on the processing

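The number of genes stayed between 297 (starts more than 10 kb apart) and 463 (replicate 2 alone) over 11 alternatives, within 1.5 times of 400. Leaving out each replicate in turn gave 458 to 463 genes, a median height of 1.89 to 2.32 and a CpG-rich share of 60.04% to 60.5%. Heights and footprints were then those of the 1 animal left. The footprint share was 88.4% with replicate 1 alone and 86.6% with replicate 2 alone. Counted in 1 animal, the share at the 400 starts was 91.25% in replicate 1 and 89.5% in replicate 2. With the smaller peak lists 395 genes met the rule, of which 328 were among the 400, with a median height of 3.16, a CpG-rich share of 69.6% and a footprint share of 94.9%. An open window of 100 bp gave a footprint share of 89.0%, and a distance over 10 kb a median height of 2.00. The stricter CpG limit, a ratio of 0.75 and GC of 55%, gave 43.75%, where 56.7% of open most upstream starts passed. The median difference between the animals was reversed to 0.055 relative to open most upstream starts, because these had a larger drop themselves. The other alternatives kept each value within the spread of the animals or its interval. No paired analysis was possible because there is a single group of 2 animals. Unknown depth limits what a missing peak means.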
